A study of Onthophagus taurus with 66 samples.

Results

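*C15* and *ladybird early* (*lbe*) are a pair of homeobox genes of the NK class whose transcripts were counted in the dorsal head of the horned dung beetle *Onthophagus taurus*. Their transcripts, XM_023060389.1 (*C15*) and XM_023060332.1 (*lbe*), are 2 of 23725 transcripts in the table of counts, and each gene has 1 transcript there. Both were chosen by their differences between head regions within a sex, so their levels by region are given as a description, without a test. The libraries came from 6 males and 5 females. Each head gave 6 pieces of epithelium: left and right lateral anterior (LatA), left and right lateral posterior (LatP), medial anterior (MA) and medial posterior (MP), so that the 66 libraries were from 11 animals. All were pre-pupae from large larvae taken in the last hours before pupation, with no treatment or transgene, and brain, muscle, dorsal eye and labrum had been trimmed away. At that stage LatP is the epithelium that grows out as the paired posterior horns of large males, whereas females carry a ridge and no horns. Total counts per library ranged from 10807956 to 17048942 with a median of 13246361, and the pieces of 1 head are repeated samples of 1 animal.

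NK homeobox genes encode transcription factors that lie in a cluster in many animals, and in *Drosophila* the cluster includes *tinman*, *bagpipe*, *lbe* and *C15*. In the fly, *C15* (also called *clawless*) is a relative of the vertebrate *Tlx* genes and acts in the tips of the leg and antenna, and *lbe* is a relative of the *Lbx* genes and acts in the choice of muscle and heart cell fates. What either gene does in a beetle head is not part of these data.

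The name *C15* rests on a best hit in *Drosophila*, and the transcript's own NCBI name and its best hit in the beetle *Tribolium* both point to the T-cell leukemia homeobox proteins, the vertebrate *Tlx* group. The name *lbe* is less settled: the best *Drosophila* hit is ladybird early, the best *Tribolium* hit is BarH-like 1, and the NCBI name is that of a plant-type homeobox-leucine zipper protein, HAT1-like. In the annotation of a newer assembly (IU_Otau_3.0) the genes lie on the same chromosome with 0 protein-coding genes between them, and 2 genes of other kinds start between them.

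*C15* was found in MP and was near or at 0 in the other 3 regions, in both sexes. The counts in male MP were 29, 63, 30, 3, 56 and 26 in males 1 to 6, and those in female MP were 4, 40, 55, 42 and 94 in females 1 to 5. Outside MP, the 30 male libraries held 3 counts in all and the 25 female libraries held 24. MP was therefore the highest region in 6 of 6 males and 5 of 5 females, and 10 of the 11 MP libraries held more than 3 counts. Animals differed widely within MP: male 4 had 3 counts and female 1 had 4, whereas the other 9 MP libraries had at least 26. In bulk pieces like these, fewer cells with a transcript and less transcript per cell cannot be told apart.

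**Figure D1:**
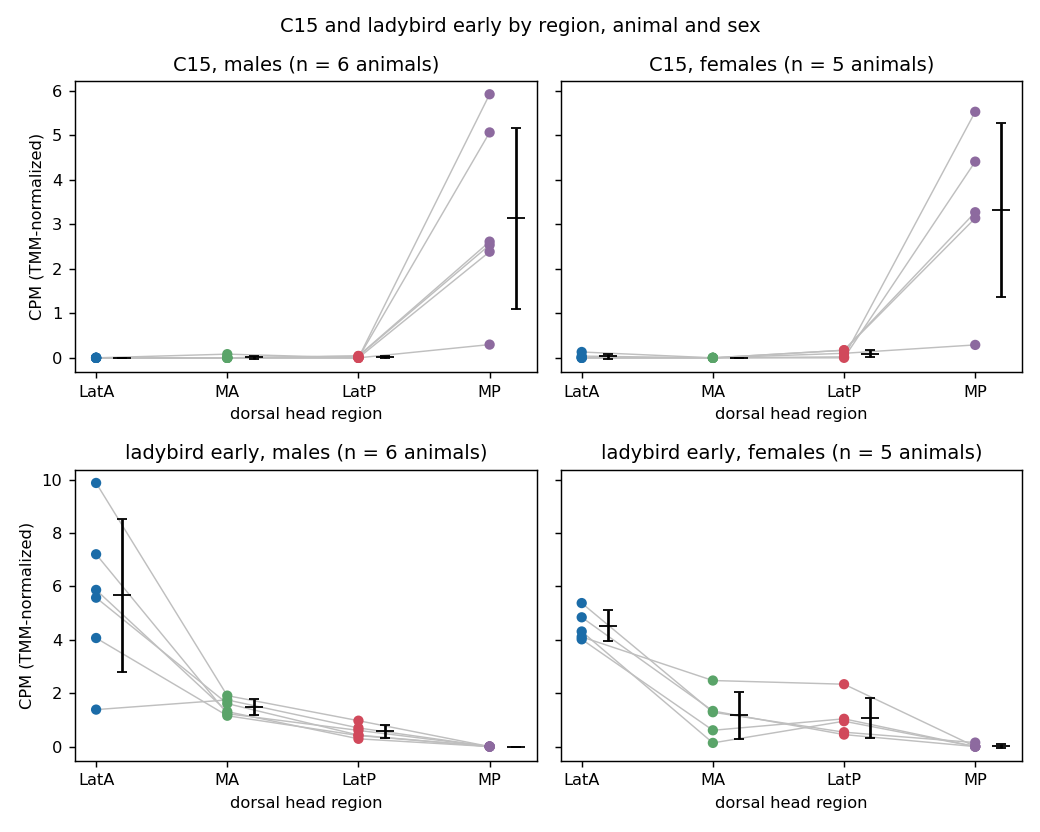
CPM (counts of a transcript scaled to a common library size, with TMM factors) of *C15* (top) and *lbe* (bottom) in each region, males left and females right. Points are animals, with left and right pieces averaged and grey lines joining the regions of 1 animal, and black bars give the mean ± SD; *C15* stands above 2 CPM only in MP, and *lbe* goes down from LatA to 0 or near 0 in MP.

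In CPM, *C15* averaged 3.13 ± 2.04 CPM in male MP (SD, n = 6) and 3.33 ± 1.95 CPM in female MP (SD, n = 5). These are low levels: 3 counts, taken here as the floor of detection, correspond to 0.176 to 0.278 CPM depending on library depth. In males, LatP held 2 counts against 207 in MP, and MP was 240-fold higher in CPM (95% exact counting interval 65.6 to 1995). Those 2 counts lie under the floor, and with 1 male left out the ratio ranged from 168 to 422, the highest without male 1 and 414 without male 3. Male MA held 1 count, and MP was 219-fold higher (38.9 to 8702). Male LatA had no count in 12 libraries, so MP was at least 12.4-fold higher than the floor of 3 counts in the smallest of those libraries. The intervals cover counting error only, not the spread between animals.

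As a description, the fold between LatP and MP was smaller in females, and the male fold rests on 2 counts in LatP. The difference between the sexes in this change, tested below, did not pass. Female LatP held 19 counts against 235 in MP, and MP was 33.4-fold higher (20.9 to 56.5), with a fitted LatP to MP log2FC of -5.01 (SE 0.94). The female LatP counts were 2, 0, 0, 3 and 0 in left pieces and 1, 0, 9, 3 and 1 in right pieces of females 1 to 5, so that 9 of the 19 came from the right piece of female 3. Male LatP had single counts only, in the right pieces of males 1 and 3. Female LatA held 5 counts, 4 of them in the left piece of female 2, and MP was 94.7-fold higher (40.0 to 294). Female MA had no count, so MP was at least 13.9-fold higher than the floor.

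*lbe* was lowest in MP, the region where *C15* was highest. *lbe* was highest in LatA, lower in MA and LatP, and absent or nearly so in MP. In male LatA the left pieces had 15, 90, 131, 53, 95 and 66 counts and the right pieces 16, 149, 57, 54, 53 and 69 in males 1 to 6. In female LatA the left pieces had 53, 71, 54, 61 and 51 counts and the right pieces 47, 66, 85, 74 and 73 in females 1 to 5. Male 1 was low in both LatA pieces and every other LatA library had at least 47 counts. In MP, all 6 male libraries had 0 counts, and the female libraries had 0, 0, 0, 2 and 0.

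The intermediate regions lay between. Male MA had 19, 23, 14, 14, 14 and 20 counts, a narrow range, and female MA had 8, 17, 2, 20 and 36. Male LatP had 13, 6, 7, 6, 2 and 4 counts in left pieces and 3, 16, 9, 4, 7 and 7 in right pieces. Female LatP had 18, 5, 21, 8 and 46 in left pieces and 13, 9, 25, 11 and 59 in right pieces. Both pieces of female 5 were the highest LatP libraries in the data, and the same animal had the highest MA count.

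In CPM, *lbe* averaged 5.66 ± 2.86 in male LatA, 1.49 ± 0.305 in male MA and 0.568 ± 0.245 in male LatP (SD, n = 6). It averaged 4.53 ± 0.570 in female LatA, 1.17 ± 0.884 in female MA and 1.06 ± 0.756 in female LatP (SD, n = 5). In males the order was LatA, MA, LatP, MP, with LatA highest in 5 of 6 animals and MA above LatP in 6 of 6. In females LatA was highest in 5 of 5 animals, but MA and LatP did not differ beyond their spread and MA was above LatP in 3 of 5. Male 1 was the exception among males, with 1.38 CPM in LatA and 1.75 CPM in MA.

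The fold between the lateral regions was larger in males than in females as a description. Male LatA was 10.3-fold above male LatP (95% counting interval 8.19 to 13.0), with a fitted log2FC of 3.30 (SE 0.39). Female LatA was 3.96-fold above female LatP (3.39 to 4.64), with a fitted log2FC of 2.05 (SE 0.32). Female 5 carried part of that: without it the female ratio was 6.03. Against male MP, which had no count, *lbe* was at least 23.6-fold higher in LatA, at least 6.23-fold higher in MA and at least 2.37-fold higher in LatP. Against the 2 counts of female MP, *lbe* was 39.8-fold higher in LatP (10.9 to 331), 41.3-fold higher in MA (11.1 to 346) and 158-fold higher in LatA (43.4 to 1304). Both of those MP counts came from female 4, without which female MP had none. With 1 of the other females left out, the ratio over MP ranged from 20.2 to 38.6 for LatP and from 22.3 to 38.6 for MA, lowest without female 5 in both.

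By the criteria used across all transcripts (edgeR quasi-likelihood test, an adjusted p under 0.001 together with a log2FC beyond 2 in size), both genes were called between LatP and MP in males, where 0.554% of all transcripts tested were called. With the animal as a block, *C15* alone was called there, while over all transcripts 72 were higher and 15 lower in LatP of 13167 tested. *lbe* was also called between LatA and LatP in males, with 0.793% of all transcripts called, and in females, with 0.425%. Neither gene was called between LatP and MP in females, where 0.252% were, nor between MA and MP in males (0.112%) or females (0.0308%). The study, with DESeq2 at the same thresholds, lists *C15* as a core gene of MP in both sexes. Its core genes of MP were higher there than in both LatP and MA. Over the 8 region contrasts DESeq2 called 1.01% of all tests here and edgeR 0.276%. The edgeR fits counted left and right pieces as separate libraries. With left and right counts summed per animal, no call of either gene was left: the adjusted p of *C15* between LatP and MP in males was 0.00164, that of *lbe* between LatA and LatP was 0.00218 in males and 0.0943 in females, and *lbe* was under the filter on low counts between LatP and MP in males. The log2FC values stayed close, at -7.24 for *C15* and at 3.29 and 2.07 for *lbe*. Over all transcripts with summed sides, 22 were called higher and 3 lower in LatP than in MP of males, of 12474 tested. Between LatA and LatP, 6 were called higher and 27 lower in LatA of 12586 in males, and 0 of 13572 were called in females. These contrasts chose the genes, so the calls add nothing to the levels above.

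*C15* and *lbe* were seldom found in the same piece. Taking more than 3 counts as detected, 10 libraries had *C15* alone, 50 had *lbe* alone, 4 had neither and 2 had both. The 2 with both were the left LatA piece of female 2, with 4 counts of *C15* and 71 of *lbe*, and the right LatP piece of female 3, with 9 and 25. The 10 with *C15* alone were all MP libraries. Over the 44 values of animal and region, each taken as log2(CPM + 1) relative to the animal's own mean, the correlation between the genes was -0.64; the points share animals and libraries, and the choice of genes fixed its direction.

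**Figure D2:**
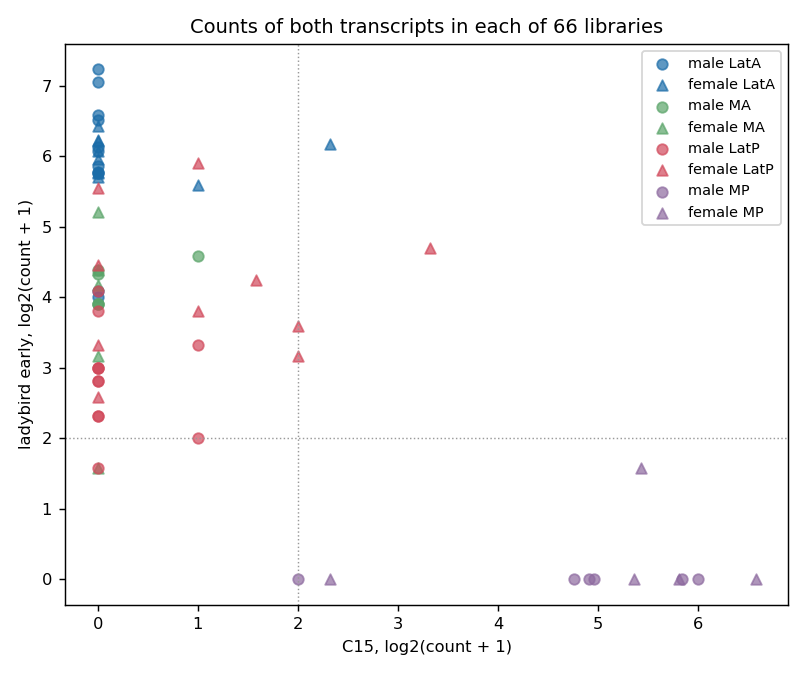
Counts of *C15* (x axis) and *lbe* (y axis) in each of the 66 libraries, both as log2(count + 1), coloured by region, with circles for males and triangles for females and dotted lines at 3 counts. MP libraries lie along the x axis, the other regions along the y axis, and 2 female libraries lie above 3 counts for both.

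Some libraries stood apart over the transcriptome. Each library was matched to regional mean profiles built from the remaining animals of the same sex, using the 500 transcripts with the most different regional means and neither *C15* nor *lbe*, and 61 of 66 libraries were nearest to their own region. The other 5 were both LatA pieces of male 1, nearest to MA, the MA piece of male 1, nearest to LatA, and both LatA pieces of female 2, of which the left was nearest to LatP and the right to MA. Correlations to the nearest and own region were close in the left LatA piece of male 1 (0.41 and 0.37) and the right of female 2 (0.34 and 0.31). They were 0.52 and 0.42 in the right LatA piece of male 1 and 0.32 and 0.03 in its MA piece. The left LatA piece of female 2 resembled neither region (0.10 and -0.09). Male 1 is also the animal in which *lbe* was not highest in LatA, and the left LatA piece of female 2 is the only LatA library with more than 3 counts of *C15*. All 11 MP libraries were nearest to MP, including those of male 4 and female 1 with few *C15* counts. A part of mixed or shifted pieces in these values was not tested.

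The next contrasts are not the ones that named the genes, and each was fitted across all transcripts with edgeR's quasi-likelihood test and Benjamini-Hochberg adjustment. LatA and MA were compared to ask whether the anterior head differs from side to middle. The same LatA and MA libraries also entered the contrasts that chose the genes, so this comparison is not independent of that choice. *lbe* was higher in LatA than in MA by a log2FC of 1.93 (SE 0.42) in males and 1.95 (SE 0.45) in females, and the pooled ratios were 3.79 (3.09 to 4.69) and 3.82 (3.03 to 4.86). LatA exceeded MA in 5 of 6 males and 5 of 5 females. In males the adjusted p from edgeR was 0.249 and in females 0.623, so neither passed, and 0% of all transcripts were called in this contrast in either sex.

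The adjusted p moved with the tool and with 1 male, but *lbe* was called in none of these settings. Both comparisons had an unadjusted p under 0.05 (edgeR, 0.000222 in males and 0.000622 in females), and DESeq2 gave an adjusted p of 0.00151 in males and 8.65e-05 in females, with a log2FC just under the threshold of 2 in each. Over all transcripts, edgeR had 1076 of 26578 tests with an unadjusted p under 0.05 in this pair of contrasts and DESeq2 called 36. Without male 1 the edgeR adjusted p for *lbe* in males was 0.00565, and without only its MA and right LatA libraries it was 0.0361. *C15* did not reach 1 CPM in 2 of these libraries and was not tested.

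Males and females were compared within each region, with left and right counts summed so that each animal counted once. *C15* in MP differed between the sexes by less than the spread between animals, with a male to female log2FC of -0.09 (SE 0.71, edgeR adjusted p = 0.999). Its range over animals was 0.298 to 5.92 CPM in male MP and 0.290 to 5.53 CPM in female MP, and these ranges overlap almost fully. For *lbe* the male to female log2FC was 0.31 (SE 0.38, adjusted p = 0.868) in LatA and 0.33 (SE 0.57, adjusted p = 1.00) in MA. Neither exceeded the spread between animals.

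In LatP, the horn-forming region of males, *lbe* was lower in males than in females as a mean, and the difference did not pass. Male LatP values were 0.698, 0.970, 0.606, 0.414, 0.291 and 0.430 CPM in males 1 to 6, and female LatP values were 1.04, 0.449, 0.950, 0.539 and 2.34 CPM in females 1 to 5. The ranges overlap, and female 5 is the highest. The male to female log2FC was -0.88 (SE 0.52, edgeR adjusted p = 0.427), and without female 5 it was -0.37. The size of this difference moved with the scaling of libraries: the TMM factors, which adjust for a few abundant transcripts taking up reads, were 1.09 to 1.75 in female LatP libraries and 0.724 to 0.993 in male LatP libraries. On plain library totals *lbe* averaged 0.492 CPM in male LatP and 1.62 CPM in female LatP, and the fit without TMM factors gave a log2FC of -1.72 (SE 0.58, adjusted p = 0.0366). Without TMM factors the median log2FC of all transcripts in that comparison was -0.79, against -0.05 with them, so that most transcripts shifted with *lbe*. Over the 4 regions, 0 of 4 tests of these genes between the sexes were called, 0 had an unadjusted p under 0.05 and DESeq2 called 0. edgeR called 0% of all transcripts in each region, with 4933 of 51418 tests at an unadjusted p under 0.05, and DESeq2 called 168.

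A difference between the sexes in a region's change was tested as an interaction, called at an adjusted p under 0.05. These interactions are differences of the within-sex contrasts, among them those that chose the genes, and use the same libraries, so they are not independent of that choice either. The male minus female difference in the LatA to LatP log2FC of *lbe* was 1.26 (SE 0.49, unadjusted p = 0.0130, edgeR adjusted p = 0.269), in a contrast in which 1.03% of all transcripts were called. It was 0.93 with the animal as a block and did not pass there (adjusted p = 0.319), and it was 0.69 without female 5 (adjusted p = 0.780). On plain library totals it was 1.94 (SE 0.53) and passed, with an adjusted p of 0.00886, but the median of all transcripts was then 0.61, against 0.03 with TMM factors, and 3596 transcripts passed, against 155. For *C15* the male minus female difference in the LatP to MP log2FC was -2.15 (SE 1.07, adjusted p = 1.00), in a contrast in which 0.00673% of transcripts were called. That value rests on 2 counts in male LatP and its size depends on the prior count of the fit. The LatA to MA difference of *lbe* was -0.03 (SE 0.54, adjusted p = 1.00). In all, 6 such tests of these genes gave 0 calls and 1 unadjusted p under 0.05, and DESeq2 called 0 of 6. Over all transcripts, the MA to MP and LatA to MA interactions had 0% called.

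No difference between the left and right pieces of a head was called. For *lbe* the left to right log2FC was 0.31 (SE 0.51) in male LatA, -0.21 (SE 0.64) in male LatP, -0.26 (SE 0.22) in female LatA and -0.12 (SE 0.65) in female LatP, all with an edgeR adjusted p of 1.00. The left piece was higher in 5 of 6 males in LatA and in 2 of 6 in LatP, and in 1 of 5 females in each. None of the 4 tests had an unadjusted p under 0.05 and DESeq2 called 0. Over all transcripts 0% were called, with 1152 of 52155 tests at an unadjusted p under 0.05 and 53 calls by DESeq2.

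**Figure D3:**
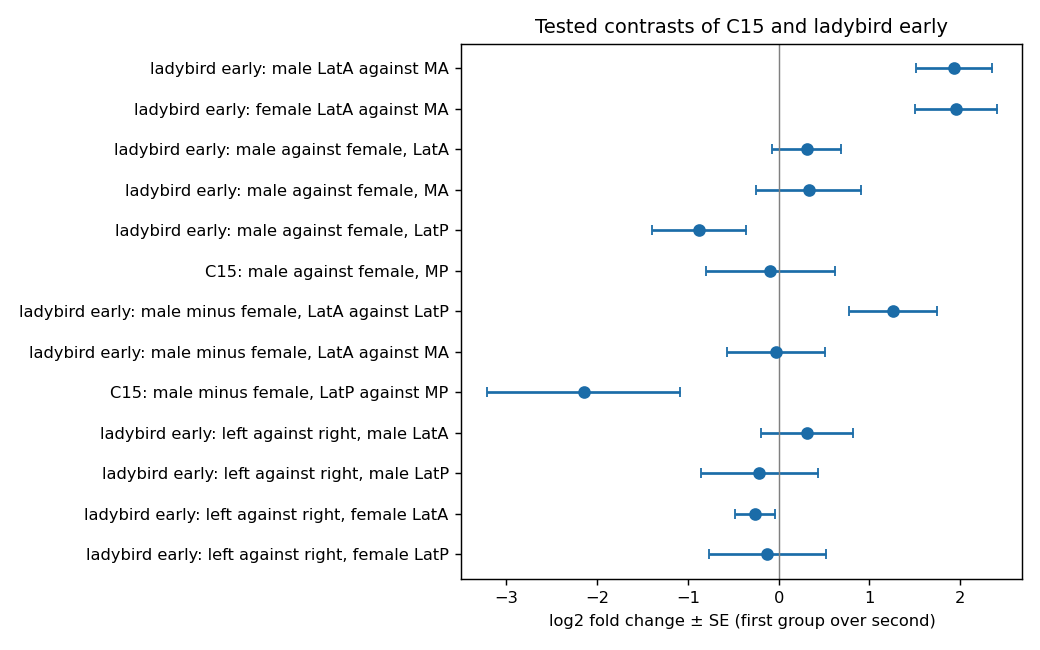
Log2 fold change ± SE of *C15* and *lbe* between LatA and MA, between the sexes and between sides (first group over second; rows with male minus female give the difference between the sexes in a region's change). LatA against MA stands farthest above 0 for *lbe*, at 1.93 and 1.95, and the left to right values lie between -0.26 and 0.31.

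The transcripts whose levels followed each gene most closely were ranked by Pearson correlation over the 44 values of animal and region, among 15444 transcripts with over 1 CPM in at least 2 libraries. The correlations are descriptions, since the points share animals and libraries. For *lbe* the closest were *wingless* (XM_023058498.1, r = 0.92), the Wnt ligand that patterns segments and appendages in insects, and *Wnt6* (XM_023058527.1, r = 0.89), a second Wnt ligand that lies beside *wingless* in many genomes. They were the first and second closest in each of 5 versions of the ranking, though their order changed once. The next were XM_023047756.1 (0.85), which has no name in the sources used here, a relative of *cuticular protein 65Av* (XM_023051268.1, 0.84) and a relative of the fork head gene *forkhead domain 96Ca* (XM_023059412.1, 0.84).

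The levels show what these correlations rest on. *wingless* averaged 13.2 ± 6.64 CPM in LatA, 6.23 ± 1.78 in MA, 2.85 ± 1.04 in LatP and 0.0777 ± 0.150 in MP of males. In females it averaged 9.99 ± 2.86, 2.73 ± 0.771, 3.44 ± 0.816 and 0.116 ± 0.156 CPM in the same regions. *Wnt6* averaged 49.3 ± 19.5 CPM in LatA and 0.413 ± 0.411 in MP of males, and 44.3 ± 19.6 CPM in LatA and 0.535 ± 0.274 in MP of females. Male 1, in which *lbe* was low in LatA, also had the lowest *wingless* of the male LatA pieces, at 4.40 CPM against 10.98 to 24.2 CPM in the other males. Male 2, with the most *lbe* in LatA (9.88 CPM), had the most *wingless* (24.2 CPM) and the most *Wnt6* (84.8 CPM). Other animals did not line up: male 3 had 7.21 CPM of *lbe* with 10.98 CPM of *wingless*. Female 4 had the most *lbe* of the females (5.38 CPM), but female 3 had the most *wingless* (13.4 CPM) and *Wnt6* (70.2 CPM). Female 2 had 4.84 CPM of *lbe* with the least *wingless* (6.88 CPM). Both Wnt genes were ranked by likeness to *lbe* over these same values, so matches in single animals follow in part from that choice. As in *lbe*, the female means of *wingless* in MA and LatP differed by less than 1 SD.

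For *C15* the closest transcripts were less distinct, with 52 transcripts above a correlation of 0.8 against 9 for *lbe*. The first was a noncoding RNA (XR_002707647.1, r = 0.90), which averaged 10.5 ± 4.57 CPM in LatP and 36.7 ± 17.9 CPM in MP of males and was present in every region. The second was *engrailed* (XM_023054067.1, 0.89), a homeobox gene that sets the posterior compartment of segments, and the others were a serotonin receptor (XM_023063195.1, 0.89), a lipase 3-like gene (XM_023056593.1, 0.89) and the unnamed XM_023060374.1 (0.88). This ranking was less stable than that for *lbe*: between 1 and 3 of the 5 stayed among the 5 closest in the other versions.

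**Figure D4:**
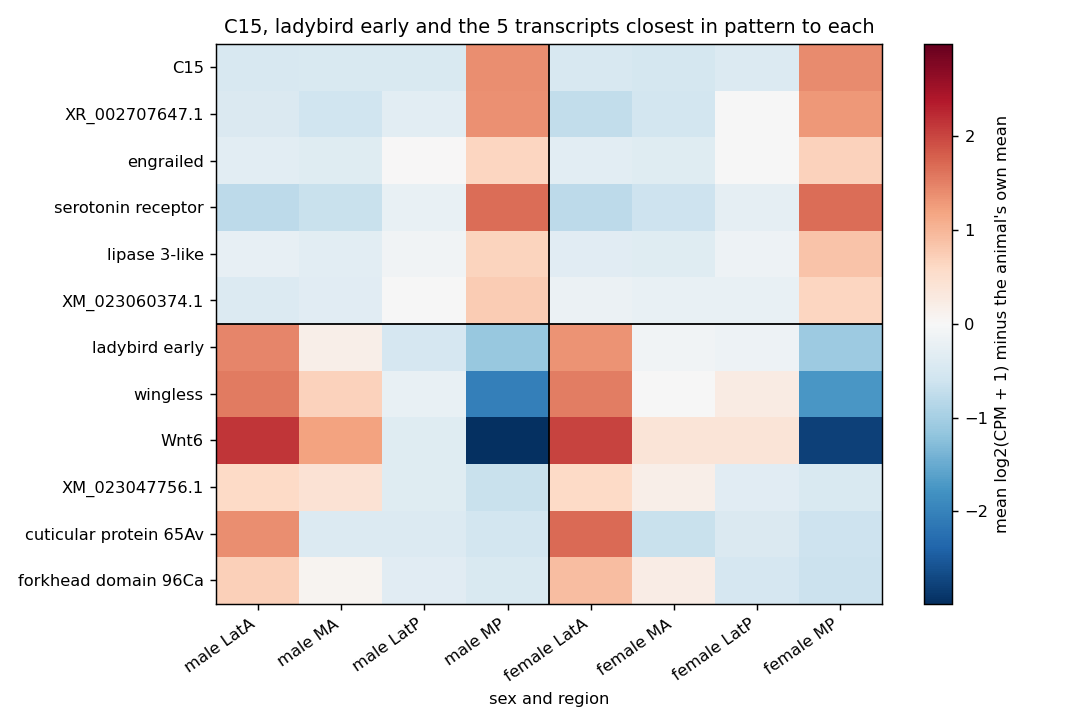
Mean level of *C15*, *lbe* and the 5 transcripts closest in pattern to each, by sex and region, as log2(CPM + 1) minus the animal's own mean (red above, blue below). The *C15* group is highest in MP of both sexes, and the *lbe* group is highest in LatA and, for *wingless* and *Wnt6*, lowest in MP.

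*engrailed* and its sister gene *invected* were also among the other genes of the NK-like list. This list was drawn up from the names the study's tables give, which cover transcripts picked on these samples, so it is short and not independent: it held 4 genes beside *C15* and *lbe*, namely *invected*, *engrailed*, *Hmx* and *rough*. *invected* averaged 1.31 ± 0.433 CPM in LatP and 3.86 ± 1.61 CPM in MP of males, and 1.60 ± 0.330 CPM in LatP and 3.75 ± 1.69 CPM in MP of females. *engrailed* averaged 1.304 ± 1.35 CPM in male MP and 1.25 ± 0.608 in female MP. Both thus overlapped with *C15* in MP, but *invected* was well above the floor in LatP too. In LatP *engrailed* averaged 0.295 ± 0.175 CPM in males and 0.341 ± 0.189 CPM in females, just above the floor. The MP piece with the least *C15* in each sex also had the least of both genes. Male 4 had 0.0992 CPM of *engrailed*, which lies under the floor, and 2.08 CPM of *invected*, and female 1 had 0.508 and 1.09 CPM. *engrailed* was ranked by its likeness to *C15* over these same values, so its match in single animals follows in part from that choice. Male 1, with 2.61 CPM of *C15* in MP, had 0.270 CPM of *engrailed*, within the range of the floor, and 2.43 CPM of *invected*. Male 6, with 2.38 CPM of *C15*, had 0.458 and 3.03 CPM.

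*Hmx*, a relative of genes of the eye and ear in vertebrates, and *rough*, an eye patterning gene in the fly, were highest in LatP. *Hmx* averaged 0.602 ± 0.205 CPM in LatP and 0.0309 ± 0.0479 in MP of males, and 1.05 ± 0.222 and 0.0646 ± 0.0668 CPM in those of females. *rough* averaged 0.315 ± 0.164 CPM in male LatP and 0.730 ± 0.328 CPM in female LatP, and was at 0 in MP of both sexes. Over the 8 contrasts between regions, 1 of the 14 edgeR tests of these 4 genes was called: *invected* was lower in LatA than in LatP of males, with a log2FC of -2.56 (SE 0.44, adjusted p = 0.000335). With the animal as a block 2 were called, and DESeq2 called 10. Over all transcripts, 0.276% of the tests in these contrasts were called by edgeR, 0.368% with the block and 1.01% by DESeq2. The names on the list were picked by the study on these regions, so its counts are fixed in part by that choice.

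A wider list of 22 other transcripts came from the same source by names such as homeobox, homeotic or paired box. It includes the NK-like genes above, and *orthodenticle-1* has more than 1 transcript on it, so its counts are not of separate genes. *spalt major* and *Pox meso* are also on it, and whether each protein holds a homeodomain was not checked. The list was likewise picked on these samples, so its counts are a description and say nothing of homeobox genes at large. Between LatA and LatP, 0 were higher and 7 lower in LatA of 19 tested in males, and 1 higher and 5 lower of 21 in females. Between LatP and MP, 2 were higher in LatP of 17 tested in males and 1 of 20 in females, with none lower. Over all transcripts the shares called were those given above, 0.793% and 0.425% between LatA and LatP and 0.554% and 0.252% between LatP and MP, in males and females.

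None of the genes that lie beside *C15* and *lbe* was called. The 5 annotated protein-coding genes on each side of either gene gave 10 genes and 12 transcripts, of which 5 to 8 were tested per contrast. 0 were called in any of the 8 contrasts by edgeR or by DESeq2, and 0 when the criteria were relaxed to 0.05 for the adjusted p and 1 for the size of the log2FC. Since 0.276% of tests over all transcripts were called, and 1.81% under the relaxed criteria, a count of 0 among so few lies near the background and is no result about these genes. Their median log2FC lay between -0.27 and 0.02.

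Markers of other tissues that a dissected piece could hold were followed beside both genes. Of the marker lists, 16 muscle transcripts, 3 photoreceptor, 1 neuronal and 1 transcript of the tracheal list could be named, and none for epidermis, hemocytes or fat body. The summed muscle transcripts were 40.1 to 123 CPM in male LatP against 127 to 1406 CPM in male MP (median 552), and 61.5 to 399 CPM in female LatP against 112 to 1587 CPM in female MP (median 901). Between LatP and MP, muscle transcripts thus moved in the direction of *C15*. In MA the sums were 13.4 to 98.7 CPM in males and 61.1 to 1258 CPM in females (median 77.5). *C15* had 1 count in male MA and 0 in female MA. Among MP pieces, male 4 had 0.298 CPM of *C15* with a muscle sum of 127 CPM, and males 2 and 5 had 5.92 and 5.06 CPM with sums of 910 and 1406 CPM. Female 2 had 4.41 CPM of *C15* with 112 CPM, and male 6 had 2.38 CPM with 1187 CPM. The part of muscle RNA in the *C15* level was not tested. For *lbe*, summed muscle transcripts were 19.98 to 252 CPM in male LatA against 40.1 to 123 CPM in male LatP, and 97.5 to 357 CPM in female LatA against 61.5 to 399 CPM in female LatP, so these ranges overlapped where *lbe* differed. The 3 photoreceptor transcripts summed to 8.86 to 45.8 CPM in male LatP and 16.4 to 40.8 CPM in female LatP, and to at most 3.29 CPM elsewhere. The neuronal transcript differed between LatP and MP in the direction of *lbe*, at 4.49 ± 0.896 CPM in LatP and 0.739 ± 0.617 CPM in MP of males (SD, n = 6) and 4.56 ± 2.00 CPM in LatP and 0.691 ± 0.485 CPM in MP of females (SD, n = 5). In LatA, where *lbe* was highest, it averaged 2.64 CPM in males and 3.48 CPM in females. The transcript on the tracheal list was named only by its best *Drosophila* hit, *branchless*, and whether it marks tracheal tissue was not tested. It was lower in LatA than in LatP, against the direction of *lbe*. The values were 0.662 ± 0.350 and 4.67 ± 2.70 CPM in males and 0.643 ± 0.494 and 2.91 ± 1.22 CPM in females. The part of these tissues in the *lbe* level was not tested.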

How the data were processed

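Per the labels and the study's methods, RNA from each piece was made into stranded mRNA libraries, and single-end reads were trimmed (Trimmomatic 0.32), aligned to the *O. taurus* v2.0 gene models (Bowtie2 2.3.2) and quantified (RSEM 1.3.0). The deposited table holds expected counts per transcript as the authors' RSEM run estimated them, not normalized; they were rounded, and both genes have whole counts in every library. CPM used TMM factors over all libraries, and left and right pieces were averaged per animal. Fits used edgeR 4.0.16 (R 4.3.3) on transcripts over 1 CPM in at least 2 of the libraries fitted, with the SE taken as the log2FC over the root of F, and DESeq2 1.42.0 as the alternative; the thresholds follow the study. The fits were tested on simulated data. The genes and lists were chosen with earlier results of these data known. The named transcripts are both genes, the NK-like list, the 5 closest in pattern and the neighbours. Same-numbered pieces within a sex come from the same animal, so the numbers pair them, and animal was tried as a block. Names come from the study's tables, and 15104 transcripts matched the newer annotation by accession without version. Alternatives were another tool, scaling, filter, thresholds, added or separate sides and each animal left out. No 2 libraries held identical values, and replicate libraries differed by more than counting noise (chi-square per degree of freedom at least 33.2).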

Additional observations from a re-analysis of the deposited data

Results flagged for a closer look

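Of the 13 groups of animals in which a gene had any count, 2 held an animal far from the others. In both, every other animal was at 0, so any single count would be flagged and the usual rate of 1 in 20 does not apply. Male 2 had 0.0830 CPM of *C15* in MA, from 1 count, and the other 5 males had none there. Female 4 had 0.149 CPM of *lbe* in MP, from 2 counts, and the other 4 females had none. Both values lie under the floor of 3 counts.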

How the results depend on the processing

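Of 481 comparisons between a value and an alternative, 452 were kept, by a rule that differed with the kind of value. Tests of a single gene were judged by direction and call, and CPM and lower bounds by the SD over animals. Leaving an animal out, or taking the median, cannot move a mean CPM by more than that SD. Those CPM comparisons were therefore kept in advance, and the count of kept comparisons includes them. Ratios were judged by their counting interval, described log2FC values by their spread, and counts by how far they moved. The cause of the changes below was not tested. On plain library totals, an alternative chosen after seeing the data, 1 interaction was called in place of 0 (*lbe*, LatA to LatP, 1.94), the LatA to MA interaction of *lbe* was 0.081 in place of -0.03 (0.13 without the male 1 MA and right LatA libraries), and the female ratio of LatA over LatP of *lbe* was 2.82. Of the 5 closest transcripts of *C15*, 2 stayed with a pseudocount of 0.1, 1 with Spearman, 2 without centring and 3 without those male 1 libraries; for *lbe* 2 stayed with the pseudocount of 0.1 and 3 with Spearman. Calls over the 8 region contrasts were 1 for the NK-like list (10 by DESeq2, 10 with relaxed thresholds, 2 with the replicate block, 0 with sides added) and 19 for the wider homeobox list (51 by DESeq2, 53 with relaxed thresholds, 11 with sides added).

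With single animals left out, the female LatA over LatP ratio of *lbe* ranged from 3.39 to 6.03, the left to right log2FC in female LatP from -0.27 to 0.047, the male to female log2FC of *C15* in MP from -0.38 to 0.16, and the LatA to MA interaction of *lbe* from -0.52 to 0.25. Fitting the animal as a replicate block, which the shared heads allow within a sex, left 0 calls of *C15* or *lbe* in the LatA to MA, left to right and interaction tests and changed no call of theirs other than that of *lbe* between LatP and MP in males, given above. The block was not possible between the sexes, whose numbers mark different animals. Adding left and right pieces together left 0 calls of either gene in the region contrasts too, where *C15* had 1 and *lbe* had 3. Calls over all transcripts in the contrasts that lost these calls are given above. Depth limits *C15* outside MP and *lbe* in MP, where nearly all values lie at or under the floor of 3 counts, and fitted MA to MP log2FC values are replaced by ratios and bounds because a group was at or near 0.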
